A study of Mus musculus with 6 samples.

Results

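Double-positive cells of the adult mouse islet carry an insulin reporter together with a delta-cell lineage label, and they are set here against delta cells of the same islets. The comparison takes 4 of the 6 sorted libraries of the series: 2 of double-positive cells, which the labels call transdifferentiated, and 2 of delta cells. A gene entered if 2 of these 4 libraries or more held it at 1 RPKM or above, which gave 12849 of 46959 gene symbols. RPKM is a read number scaled to gene length and to library depth. Near that limit, 262 genes had a second-highest value between 0.9 and 1 RPKM and were left out, and 239 had one between 1 and 1.1 RPKM and were kept.

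The animals of every group were adult triple transgenics. They carried mIns1-H2b-mCherry, a red nuclear histone fusion under an Ins1 promoter, an Sst-cre allele, in which the somatostatin gene drives Cre recombinase, and a floxed YFP allele that stays on in a cell and its descendants once Cre has acted. The double-positive libraries are cells sorted for mCherry and YFP, and the titles of the delta libraries name YFP alone. The labels leave unsaid whether mCherry was gated out of the delta sort. Beta libraries, sorted for mCherry, enter the shared estimate of spread and are quoted for reference. Each pool joined the islets of 10 to 12 animals of 1 sex, which spent a night in culture at 5.5 mM glucose before trypsin and the sorter, and each group has 1 male and 1 female pool. The pool is a block in the fit, so the shift between male and female pools that the groups share is removed. The p-values below measure the spread that is left, and animals within a pool cannot be told apart. The series description is not of a piece: it also speaks of alpha cells as the origin and of bitransgenic females. The delta origin and both sexes, as in the title and the sample labels, were followed. Because only the double-positive sort is known to have used the Ins1-driven mCherry, part of the difference in insulin transcripts was selected by the gate. The Sst-driven YFP label was shared by both sorts.

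Delta cells are the somatostatin-secreting cells of the islet and hold back insulin and glucagon release from their neighbours. They share with beta cells the transcription factor Pdx1 and much of the machinery that couples glucose to secretion, and they are set apart by Hhex, by the ghrelin receptor and by urocortin 3 receptors. Beta cells are known by insulin, by the glucose transporter Glut2 and by Mafa and Nkx6-1, and mature mouse beta cells secrete urocortin 3, to which delta cells respond. In the data, where 2 values are given for a group, the first is the male pool and the second is the female pool.

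The markers fit the 2 sorts in part. Sst, which lies at chr16:23889573-23890958 on the minus strand (GENCODE M21, GRCm38), was at 12842 and 12933 RPKM in the double-positive libraries and at 49770 and 58481 RPKM in the delta libraries. Ins2, at chr7:142678656-142743381 on the minus strand, lay at 68230 and 73020 RPKM in double-positive and 1125 and 1369 RPKM in delta cells. The double-positive libraries thus held both hormones in quantity, and the delta libraries held far more Sst than Ins2. The delta libraries also held 14573 and 15846 RPKM of Gcg, the glucagon gene of alpha cells, and 16735 and 15817 RPKM of Ppy, the pancreatic polypeptide gene. In bulk libraries, fewer cells of a type and less RNA per cell cannot be told apart, for these genes and for all those below.

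The read denominators behind the RPKM values were worked out as 12.5 and 10.9 M reads for the double-positive and 17.0 and 15.7 M for the delta libraries. One read on 1 kilobase was then worth 0.0589 to 0.0917 RPKM across these 4. Ins2 alone took 17.9% and 18.6% of the summed RPKM of the double-positive libraries and 0.305% and 0.36% in delta cells. Even so, the median log2 difference over all genes was -0.03, and -0.02 after median-of-ratios scaling. Differences are on the log2(RPKM + 1) scale, double-positive minus delta, with the standard error (SE) and the Benjamini-Hochberg adjusted p of limma-trend, which called a gene at an adjusted p under 0.05.

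Of the 12849 genes, 837 were higher in double-positive cells (6.51% of those tested) and 1089 were lower (8.48%). All 1926 had the same sign in the male and the female pool. Among them, 366 were higher and 275 lower by 1 log2 unit or more. List counts below are to be read against the shares of 6.51% higher and 8.48% lower. Over all 12849 genes, both double-positive pools lay above both delta pools in 3517 and below them in 4642. A lack of overlap between the groups is thus common and says little alone. Among called genes at 5 RPKM or more whose groups did not overlap, the 3 largest increases were those of Ins2, Ins1 and G6pc2 and the 3 largest decreases those of Gcg, Pdk4 and Eef1a2. Of the called genes, 433 higher and 403 lower ones passed whichever of the 6 libraries was left out. The count fell to 553 higher and 545 lower without the female double-positive library, and it reached 1403 higher and 1974 lower without the male beta library. With no filter on low values, 25135 genes were tested, 363 were higher and 379 lower, and neither Ins2 (adjusted p = 0.0927) nor Sst (adjusted p = 0.0689) passed.

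**Figure D1:**
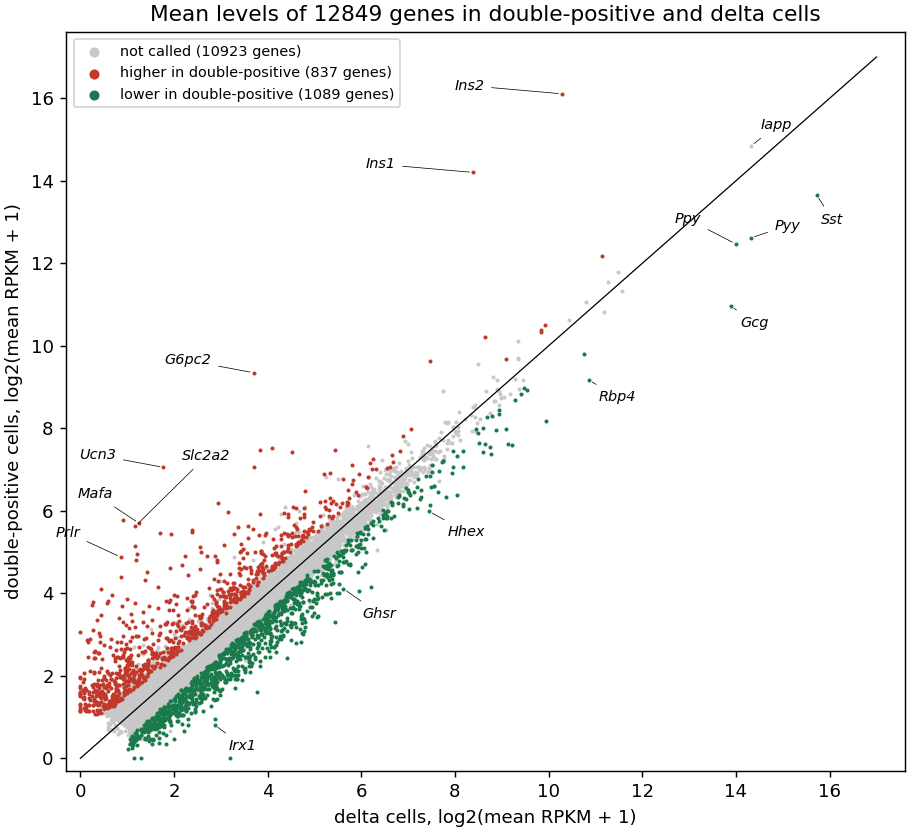
Mean RPKM of 12849 genes in delta (x axis) and double-positive cells (y axis), each on a log2(RPKM + 1) scale, with 837 called higher in red and 1089 called lower in green. Ins2, Ins1 and G6pc2 lie far above the line of equal level, while Sst, Gcg, Ppy and Pyy lie below it at the high end.

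The promoters of 4 hormone genes that separate the 2 populations are printed because all 4 are among the 12 largest increases or decreases named below. They come from RefSeq on GRCm38.p6 and run from 250 bases before to 50 bases after a transcription start. Capitals mark matches to 3 short motifs, sought on both strands: the palindromic cAMP response element TGACGTCA, the E-box CAGATG or CATCTG, and the MAF half-site TGCTGA or TCAGCA. Ins1 lies on the plus strand at chr19:52264047-52264346, Ucn3 on the minus strand at chr13:3945300-3945599, Sst on the minus strand at chr16:23890795-23891094 and Gcg on the minus strand at chr2:62483604-62483903.
Ins1: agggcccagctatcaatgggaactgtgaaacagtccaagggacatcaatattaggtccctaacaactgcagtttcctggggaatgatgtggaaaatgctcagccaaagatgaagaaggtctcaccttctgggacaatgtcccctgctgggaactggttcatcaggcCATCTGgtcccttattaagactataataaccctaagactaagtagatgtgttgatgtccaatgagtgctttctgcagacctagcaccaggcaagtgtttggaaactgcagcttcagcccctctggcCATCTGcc
Ucn3: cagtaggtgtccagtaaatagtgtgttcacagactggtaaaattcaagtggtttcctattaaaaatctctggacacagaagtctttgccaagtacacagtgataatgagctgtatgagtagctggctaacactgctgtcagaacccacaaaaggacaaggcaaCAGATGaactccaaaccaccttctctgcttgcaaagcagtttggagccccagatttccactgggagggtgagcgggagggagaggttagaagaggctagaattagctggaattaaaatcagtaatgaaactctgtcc
Sst: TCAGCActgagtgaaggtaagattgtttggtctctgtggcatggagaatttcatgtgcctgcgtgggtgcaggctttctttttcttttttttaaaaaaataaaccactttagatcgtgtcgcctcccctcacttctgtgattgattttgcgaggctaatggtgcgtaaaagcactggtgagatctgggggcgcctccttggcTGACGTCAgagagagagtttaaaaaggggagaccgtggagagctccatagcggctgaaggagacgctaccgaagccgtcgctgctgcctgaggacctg
Gcg: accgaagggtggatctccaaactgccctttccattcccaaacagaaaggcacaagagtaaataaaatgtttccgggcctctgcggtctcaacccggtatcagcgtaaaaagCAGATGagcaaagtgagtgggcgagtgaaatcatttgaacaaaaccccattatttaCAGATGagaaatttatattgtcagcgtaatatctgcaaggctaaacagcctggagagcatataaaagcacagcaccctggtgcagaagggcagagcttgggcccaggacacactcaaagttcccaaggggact
The window of Ins1 held 2 E-boxes, that of Ucn3 held 1 and that of Gcg held 2, while Sst held 1 cAMP response element and 1 MAF half-site. These motifs are common: over all RefSeq windows of this length the E-box was in 17.2%, the MAF half-site in 19.5% and the cAMP response element in 1.79%. Promoters were found for 9187 of the 12849 genes. The E-box was in 16.4% of the windows of genes higher by 1 or more and in 13.1% of those lower by 1 or more, against 11.2% over the tested genes. The MAF half-site was in 18.2% and 18.7%, against 15.1%, and the cAMP response element in 1.82% and 2.78%, against 3.16%. A match is a stretch of letters and no evidence of binding.

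Beta-cell identity genes were the group with the most increases. Of 23 tested, 19 were higher in double-positive than in delta cells, none was lower and 4 did not pass. Their median log2 difference was 3.61, against -0.03 over all genes. The 19 stayed at 19 when either double-positive or either delta library was left out.

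Insulin led the list. Ins2 differed by 5.83 (SE 0.21, adjusted p = 2.96e-05), and the beta pools held 243303 and 169339 RPKM of it. Ins1, the other rodent insulin gene, measured 17382 and 20317 RPKM in double-positive and 294 and 373 RPKM in delta cells, a difference of 5.82 (SE 0.19, adjusted p = 1.98e-05). In both genes the groups were far apart, pools within a group were close, and the double-positive pools lay between delta and beta cells.

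G6pc2, the islet glucose-6-phosphatase, stood at 610.1 and 691 RPKM in double-positive and 11.2 and 12.8 RPKM in delta cells, and its difference of 5.65 (SE 0.10, adjusted p = 3.74e-06) had the smallest adjusted p among the genes named here. Ucn3, the urocortin 3 gene, was at 107 and 157 RPKM in double-positive and 2.43 and 2.42 RPKM in delta cells (log2 difference 5.25, SE 0.15, adjusted p = 1.98e-05). Slc2a2, which encodes Glut2, lay at 35.4 and 61.5 RPKM in double-positive and 1.12 and 1.4 RPKM in delta cells (log2 difference 4.40, SE 0.19, adjusted p = 6.02e-05). None of the 3 overlapped between the groups. For Slc2a2 the female double-positive pool was above the male one, as was also so for the beta pools at 47.3 and 93.2 RPKM.

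Several more members concern secretion and its receptors. Sytl4, or granuphilin, which docks insulin granules at the membrane, measured 47.6 and 60.1 RPKM in double-positive and 0.805 and 0.983 RPKM in delta cells (log2 difference 4.85, SE 0.13, adjusted p = 1.98e-05). Prlr, the prolactin receptor through which beta cells expand in pregnancy, stood at 25.9 and 30.9 RPKM in double-positive and 0.838 and 0.802 RPKM in delta cells (log2 difference 4.01, SE 0.16, adjusted p = 4.73e-05). In Prlr the double-positive pools were also above the beta pools, which held 15.7 and 24 RPKM. Ffar1, the receptor for long-chain fatty acids, was at 29.1 and 30.4 RPKM in double-positive and 1.36 and 1.27 RPKM in delta cells (log2 difference 3.73, SE 0.14, adjusted p = 3.03e-05). Papss2, which makes the sulfate donor of the cell, and Slc30a8, the zinc transporter of the insulin granule, differed by 3.42 and 2.03 (adjusted p = 1.98e-05 and 0.000323). Slc30a8 lay at 159.9 and 195 RPKM in double-positive and 159.6 and 207 RPKM in beta cells.

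Prss53, a serine protease gene, measured 26.7 and 41.9 RPKM in double-positive and 0.884 and 1.61 RPKM in delta cells (log2 difference 3.96, SE 0.12, adjusted p = 1.98e-05). Cox6a2, a subunit of cytochrome oxidase, stood at 20.2 and 33.5 RPKM in double-positive and 0.607 and 1.97 RPKM in delta cells (log2 difference 3.63, SE 0.19, adjusted p = 0.00014). Tmem215, a membrane protein gene outside the list and among the 12 largest increases, was at 14.4 and 17.8 RPKM in double-positive and 0.261 and 0.457 RPKM in delta cells (log2 difference 3.65, SE 0.12, adjusted p = 1.98e-05). Each of these 3 was at or under 2 RPKM in both delta pools and at 14 RPKM or more in both double-positive pools.

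Of the members, 4 did not pass, among them Iapp, Pdx1 and Npy. Iapp, the amylin gene, was high in every library, at 29434 and 29440 RPKM in double-positive and 20630 and 20530 RPKM in delta cells (log2 difference 0.52, SE 0.15, adjusted p = 0.0654), and passed only without the male beta library (adjusted p = 0.0489, with a range of 0.0489 to 0.85 over the alternatives). Pdx1 lay at 61.4 and 82 RPKM in double-positive and 59.9 and 64.6 RPKM in delta cells (log2 difference 0.19, SE 0.12, adjusted p = 0.383). Npy, a neuropeptide gene, measured 5.5 and 16.9 RPKM in double-positive and 8.12 and 11.8 RPKM in delta cells (log2 difference -0.01, SE 0.25, adjusted p = 0.992) and its pools crossed. Iapp and Pdx1 were thus well expressed in delta cells too.

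**Figure D2:**
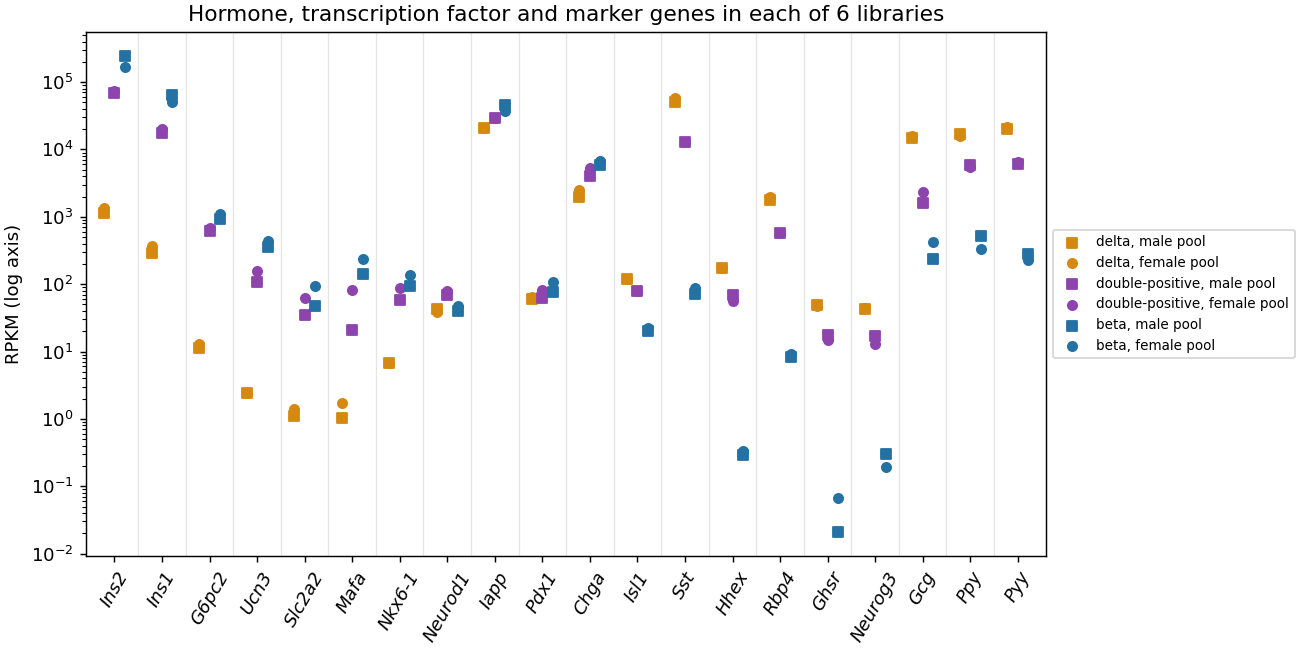
RPKM of 20 hormone, regulator and marker genes in each of the 6 libraries on a log axis, with squares for male and circles for female pools. Double-positive points lie between delta and beta points for most genes, near the beta points for G6pc2 and Slc2a2 and near the delta points for Hhex and Ghsr.

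Transcription factors of the islet moved in both directions. Of 37 tested, 6 were higher and 13 lower, with a median of -0.07. Mafa, which drives insulin transcription in mature beta cells, had the largest increase, from 1.04 and 1.71 RPKM in delta to 20.6 and 81.5 RPKM in double-positive cells (log2 difference 4.17, SE 0.32, adjusted p = 0.000657). The female double-positive pool was far above the male one, and the beta pools also differed, at 139.6 and 236 RPKM. Nkx6-1, a repressor of other endocrine fates in beta cells, stood at 58 and 86.4 RPKM in double-positive and 6.76 and 6.67 RPKM in delta cells (log2 difference 3.22, SE 0.16, adjusted p = 0.000118). Mnx1, a homeobox gene needed for beta-cell fate, was at 4.86 and 7.67 RPKM in double-positive and 0.0786 and 0.113 RPKM in delta cells (log2 difference 2.70, SE 0.16, adjusted p = 0.000221). Neurod1, shared by all endocrine cells, lay at 69.1 and 78.9 RPKM in double-positive and 43.3 and 38.4 RPKM in delta cells (log2 difference 0.84, SE 0.13, adjusted p = 0.00741). Mlxipl, which encodes the carbohydrate response factor ChREBP, measured 71.9 and 85.8 RPKM in double-positive and 43.2 and 35.8 RPKM in delta cells (log2 difference 0.98, SE 0.14, adjusted p = 0.00571). In Neurod1 and Mlxipl both double-positive pools were above all delta and beta pools, the beta pools being at 39.9 and 46.6 and 19.8 and 20.2 RPKM.

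Hhex, the homeobox factor that maintains delta cells, was at 68.6 and 56.2 RPKM in double-positive and 172 and 175 RPKM in delta cells (log2 difference -1.47, SE 0.13, adjusted p = 0.00096). Both double-positive pools lay well above the beta pools, at 0.29 and 0.331 RPKM. Neurog3, the factor of endocrine progenitors, stood at 17 and 13 RPKM in double-positive and 43.4 and 44.2 RPKM in delta cells (log2 difference -1.49, SE 0.13, adjusted p = 0.00111), with 0.301 and 0.19 RPKM in beta cells. Etv1 and Fev, a pair of ETS factors, fell by 1.20 and 1.19 (adjusted p = 0.00153 and 0.00268). Irx1, an alpha-cell factor, fell by 2.07, to 0.572 and 0.928 RPKM in double-positive cells. Sox9, a factor of ducts and progenitors, was at 1.06 and 1.66 RPKM in double-positive and 2.96 and 3.93 RPKM in delta cells (log2 difference -0.92, SE 0.16, adjusted p = 0.0114), and did not pass with a pseudocount of 0.1 RPKM. Isl1, common to all islet endocrine types, lay at 79 and 78.5 RPKM in double-positive and 121 and 118 RPKM in delta cells (log2 difference -0.60, SE 0.11, adjusted p = 0.0138). Its groups did not overlap. Isl1 missed the threshold without the male double-positive library (adjusted p = 0.0683), the female double-positive library (adjusted p = 0.136) or the male delta library (adjusted p = 0.0797), and with no filter on low values (adjusted p = 0.0558), in a range of 0.00384 to 0.136 over the alternatives.

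Delta-cell identity genes were mostly lower. Of 14 tested of 16 listed, 13 were lower and none was higher, with a median of -1.49. Sst itself fell by 2.07 (SE 0.13, adjusted p = 0.000283), to 0.238 of its mean delta level, and still exceeded its level in the beta pools, 71.1 and 86.8 RPKM. Rbp4, the retinol carrier that is abundant in delta cells, measured 569 and 577 RPKM in double-positive and 1768 and 1955 RPKM in delta cells (log2 difference -1.70, SE 0.11, adjusted p = 0.000283). Ghsr, the ghrelin receptor, stood at 17.8 and 14.7 RPKM in double-positive and 49.5 and 46.7 RPKM in delta cells (log2 difference -1.51, SE 0.13, adjusted p = 0.000892). In each of these 3 the groups were well separated, the pools of a group being close.

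Edn3, the endothelin 3 gene, was at 0.834 and 1.03 RPKM in double-positive and 6.52 and 6.09 RPKM in delta cells (log2 difference -1.92, SE 0.14, adjusted p = 0.000494). Gap43, a growth cone protein, was also far lower, at 16.6 and 14.8 RPKM in double-positive and 57 and 63.8 RPKM in delta cells (log2 difference -1.88, SE 0.13, adjusted p = 0.000356). Arg1, which encodes arginase, lay at 95.6 and 68.1 RPKM in double-positive and 280.2 and 244 RPKM in delta cells (log2 difference -1.68, SE 0.12, adjusted p = 0.000445). None of these 3 overlapped between the groups. Cd24a, a surface glycoprotein gene, measured 226 and 167 RPKM in double-positive and 561 and 554 RPKM in delta cells (log2 difference -1.52, SE 0.13, adjusted p = 0.000915). Ptprz1, a receptor phosphatase, and Ffar4, an omega-3 fatty acid receptor, fell by 1.37 and 1.41 (adjusted p = 0.000904 and 0.000879). Casr, the calcium-sensing receptor gene, was the member that did not pass, at 26.4 and 27.3 RPKM in double-positive and 42.3 and 43.7 RPKM in delta cells (log2 difference -0.66, SE 0.21, adjusted p = 0.0895), with no overlap between the groups. Casr passed the threshold without the male double-positive library (adjusted p = 0.0332), the male beta library (adjusted p = 0.00315), the female beta library (adjusted p = 0.0036) or the female delta library (adjusted p = 0.00181), and with the 4 libraries alone (adjusted p = 0.00323), in a range of 0.00181 to 0.391 over the alternatives.

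Markers of other endocrine cells were mostly lower as well. Of 13 alpha-cell markers, 11 were lower and none was higher (median -1.24). The summed RPKM of the 13 was 2144 and 2893 in double-positive and 15600 and 16970 in delta cells. Gcg stood at 1620 and 2368 RPKM in double-positive and 14573 and 15846 RPKM in delta cells, the largest decrease of those named by the rule (log2 difference -2.96, SE 0.18, adjusted p = 0.000261). Irx1, a homeobox gene of alpha cells, was at 0.572 and 0.928 RPKM in double-positive and 6.23 and 6.4 RPKM in delta cells (log2 difference -2.07, SE 0.14, adjusted p = 0.000392). Its relative Irx2 lay at 2.63 and 2.6 RPKM in double-positive and 7.97 and 7.15 RPKM in delta cells (log2 difference -1.24, SE 0.14, adjusted p = 0.00227). For all 3 the highest double-positive pool was below the lowest delta pool. Ttr, the transthyretin gene, measured 171 and 217 RPKM in double-positive and 548 and 644 RPKM in delta cells (log2 difference -1.62, SE 0.13, adjusted p = 0.000675). Tm4sf4, a tetraspanin-like gene, did not pass, at 213 and 197 RPKM in double-positive and 195 and 183 RPKM in delta cells (log2 difference 0.12, SE 0.11, adjusted p = 0.517). Slc7a2, also on the list, went the other way without passing, at 27.3 and 32.1 RPKM in double-positive and 18.7 and 18.5 RPKM in delta cells (log2 difference 0.64, SE 0.19, adjusted p = 0.0646). After median-of-ratios scaling, and with the 4 libraries alone, 1 marker of the list was called higher.

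All 3 PP-cell genes were lower. Pyy, which encodes peptide YY, stood at 6024 and 6533 RPKM in double-positive and 19764 and 21259 RPKM in delta cells (log2 difference -1.71, SE 0.15, adjusted p = 0.000921). Ppy was at 5852 and 5508 RPKM in double-positive and 16735 and 15817 RPKM in delta cells (log2 difference -1.52, SE 0.17, adjusted p = 0.00232). Sertm1, the lowest of the 3 in level, lay at 0.223 and 0.542 RPKM in double-positive and 1.7 and 1.9 RPKM in delta cells (log2 difference -1.03, SE 0.16, adjusted p = 0.0072), and missed the threshold with a pseudocount of 0.1 RPKM. Summed, the 3 were at 11880 and 12040 RPKM in double-positive and at 36500 and 37080 RPKM in delta cells, against 802 and 558.1 RPKM in beta cells. None of the alpha or PP markers was at 0 in all 4 libraries. Most alpha and all PP genes moved with the delta-cell genes in these libraries, and their part in the decreases was not tested.

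To describe the levels without a test, genes near silent in beta cells were taken as a set: 87 genes at 10 RPKM or more in delta cells and at 5% or less of that in beta cells. In double-positive cells they stood at a median of 0.348 of their delta level, with quartiles of 0.313 and 0.391. The ratio was 0.377 in the male and 0.319 in the female pools. Of the 87, 78 lay between 0.2 and 0.5. Gcg was lowest at 0.131, and Mir344-2, a microRNA locus, was highest at 2.28.

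The mirror set was 36 genes at 10 RPKM or more in beta cells and at 5% or less of that in delta cells. Both sets were drawn from the 12849 genes tested. A beta-cell gene too low for the filter in double-positive and delta cells could not enter. Low ratios of the mirror set were thus in part left out by the filter, which raises its median. Their double-positive level was a median of 0.434 of the beta level, with quartiles of 0.331 and 0.582. Prlr was highest at 1.43 and Cd74, an MHC class II chaperone of immune cells, was lowest at 0.0629. The ratios of this set spread more widely than those of the 87. The delta and beta levels used to choose these sets are also the denominators of the ratios.

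**Figure D3:**
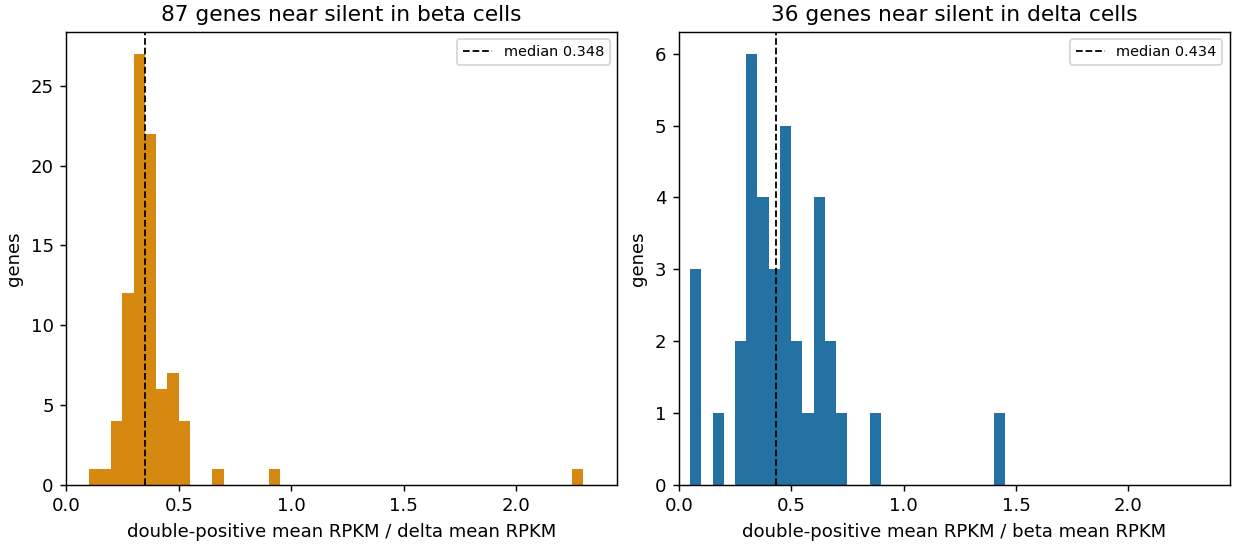
Number of genes by the ratio of mean RPKM in double-positive cells to that in delta cells (left, 87 genes near silent in beta cells) or in beta cells (right, 36 genes near silent in delta cells). The left set piles up around its median of 0.348, and the right set is broader around 0.434.

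Of 37 genes of glucose sensing and its metabolic coupling that were tested, 10 were higher and 5 lower, with a median of 0.10. Without the male double-positive library 5 were higher and 3 lower, without the female one 5 and 2, and without the male delta library 6 and 5. Besides G6pc2 and Slc2a2, Pcx, the pyruvate carboxylase that refills the citric acid cycle, measured 27 and 34.6 RPKM in double-positive and 4.11 and 5.78 RPKM in delta cells (log2 difference 2.42, SE 0.11, adjusted p = 7.11e-05). Pdk4, a kinase that turns off pyruvate dehydrogenase, stood at 2.11 and 2.01 RPKM in double-positive and 13 and 12.3 RPKM in delta cells (log2 difference -2.16, SE 0.14, adjusted p = 0.000356). Slc2a3, the neuronal glucose transporter Glut3, was at 1.26 and 0.848 RPKM in double-positive and 3.3 and 3.19 RPKM in delta cells (log2 difference -1.06, SE 0.15, adjusted p = 0.00505). Glut2 was thus higher and Glut3 lower in double-positive cells, both without overlap.

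Genes that beta cells are known to keep low were tested as a list of 25, of which 10 were above the filter. Of these, 6 were lower and none was higher (median -0.75), and 2 were lower without the female double-positive library. Acot7, an acyl-CoA thioesterase gene, lay at 1.39 and 1.47 RPKM in double-positive and 4.61 and 7.15 RPKM in delta cells (log2 difference -1.48, SE 0.18, adjusted p = 0.00283). Oat, ornithine aminotransferase, measured 2.55 and 2.26 RPKM in double-positive and 6.92 and 5.95 RPKM in delta cells (log2 difference -1.12, SE 0.14, adjusted p = 0.00284). Ldha, lactate dehydrogenase A, stood at 29.6 and 1.69 RPKM in double-positive and 48 and 6.97 RPKM in delta cells (log2 difference -1.12, SE 0.25, adjusted p = 0.0263), and its groups overlapped, every male pool being far above every female pool, beta cells included at 26.2 and 4.12 RPKM. Ldha missed the threshold without the pool block (adjusted p = 0.667) or the female double-positive library (adjusted p = 0.0969), and with a pseudocount of 0.1 RPKM (adjusted p = 0.0528) and with no filter on low values (adjusted p = 0.14), in a range of 1.33e-06 to 0.667 over the alternatives. Cat, the catalase gene, did not pass, at 6.78 and 4.81 RPKM in double-positive and 7.58 and 8.25 RPKM in delta cells (log2 difference -0.41, SE 0.16, adjusted p = 0.143).

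Granule proteins and prohormone processing gave 8 higher and 3 lower of 22 tested (median -0.02), with 5 higher without the female double-positive library and 7 lower without either beta library. Pcsk1, the convertase that starts proinsulin processing, was at 153 and 188 RPKM in double-positive and 22.8 and 20.9 RPKM in delta cells (log2 difference 2.90, SE 0.20, adjusted p = 0.000392). Ero1lb, the oxidase that helps proinsulin fold, lay at 149 and 202 RPKM in double-positive and 13 and 13.7 RPKM in delta cells (log2 difference 3.61, SE 0.15, adjusted p = 5.84e-05). The beta pools held 139.5 and 239 RPKM of Pcsk1 and 210.0 and 333 RPKM of Ero1lb. Chga, chromogranin A, measured 4006 and 5302 RPKM in double-positive and 1980 and 2538 RPKM in delta cells (log2 difference 1.04, SE 0.12, adjusted p = 0.00281). Chga missed the threshold without the female double-positive library (adjusted p = 0.0568), and with no filter on low values (adjusted p = 0.231), in a range of 5.5e-05 to 0.231 over the alternatives. Resp18, a granule protein gene of neuroendocrine cells, stood at 865 and 923 RPKM in double-positive and 1506 and 1922 RPKM in delta cells (log2 difference -0.93, SE 0.14, adjusted p = 0.00579). Pcsk1n, the inhibitor of that convertase also known as proSAAS, was at 103 and 239 RPKM in double-positive and 330.1 and 439 RPKM in delta cells (log2 difference -1.27, SE 0.29, adjusted p = 0.0281). Pcsk1n missed the threshold without the pool block (adjusted p = 0.071) or the male double-positive library (adjusted p = 0.0694), and with no filter on low values (adjusted p = 0.157) and after median-of-ratios scaling (adjusted p = 0.0567), in a range of 2.85e-08 to 0.157 over the alternatives. Scg2, secretogranin 2, was abundant in both groups, at 2686 and 2477 RPKM in double-positive and 2922 and 3175 RPKM in delta cells, and did not pass (log2 difference -0.24, SE 0.12, adjusted p = 0.253).

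Exocytosis genes gave 3 higher and 9 lower of 29 tested (median -0.16), against 6.51% and 8.48% over all genes tested. The excess of lower ones was lost without some single libraries. Without the female double-positive library 2 were higher and 1 lower, and without the male one 2 and 3. Without the male delta library the counts were 3 and 3, without the female one 2 and 5, and without either beta library 5 and 10. Cadps, which primes dense-core granules, lay at 30.9 and 36.2 RPKM in double-positive and 4.67 and 5.1 RPKM in delta cells (log2 difference 2.55, SE 0.16, adjusted p = 0.000276). Syt4, a synaptotagmin of mature beta cells, measured 82.4 and 64.6 RPKM in double-positive and 32.5 and 34.8 RPKM in delta cells (log2 difference 1.10, SE 0.14, adjusted p = 0.00332). Syt1, the calcium sensor of neuronal vesicles, stood at 4.77 and 2.68 RPKM in double-positive and 14.3 and 12.1 RPKM in delta cells (log2 difference -1.62, SE 0.18, adjusted p = 0.0021), with 0.111 and 0.129 RPKM in beta cells.

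Ion channel genes were called in both directions, where the shares over all genes tested were 6.51% higher and 8.48% lower. Of 29 potassium channel genes tested out of 59, 5 were higher and 9 lower (median -0.38), with 14 lower without either beta library. Kcnh6, an Erg-type channel, was at 23.6 and 30.6 RPKM in double-positive and 6.89 and 6.24 RPKM in delta cells (log2 difference 1.88, SE 0.17, adjusted p = 0.00106), above the beta pools at 11.3 and 16.5 RPKM. Kcnh1 lay at 5.94 and 4.46 RPKM in double-positive and 0.667 and 0.713 RPKM in delta cells (log2 difference 1.86, SE 0.17, adjusted p = 0.00118). Kcng3, a modifier subunit that forms no channel alone, measured 1.45 and 2.21 RPKM in double-positive and 0.281 and 0.228 RPKM in delta cells (log2 difference 1.16, SE 0.23, adjusted p = 0.0182). Kcna5, a delayed rectifier, stood at 5.1 and 3.94 RPKM in double-positive and 15 and 16.3 RPKM in delta cells (log2 difference -1.60, SE 0.15, adjusted p = 0.00123). Kcnk3, the background channel Task-1, was at 3.65 and 4.27 RPKM in double-positive and 11.1 and 12.5 RPKM in delta cells (log2 difference -1.37, SE 0.13, adjusted p = 0.00128). Both were below 1 RPKM in the beta pools. Kcnip3, an accessory subunit, lay at 0.36 and 0.207 RPKM in double-positive and 2.43 and 2 RPKM in delta cells (log2 difference -1.32, SE 0.15, adjusted p = 0.00253).

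The 2 genes of the ATP-sensitive potassium channel, which closes when glucose is metabolised, did not pass. Kcnj11, its pore, measured 71.5 and 87.3 RPKM in double-positive and 101 and 112 RPKM in delta cells (log2 difference -0.43, SE 0.12, adjusted p = 0.0567). Abcc8, its sulfonylurea receptor, stood at 337 and 419 RPKM in double-positive and 452 and 530.0 RPKM in delta cells (log2 difference -0.38, SE 0.12, adjusted p = 0.0832). Kcnj11 passed the threshold without the male beta library (adjusted p = 0.0122) or the female beta library (adjusted p = 0.0139), and after median-of-ratios scaling (adjusted p = 0.0481) and with the 4 libraries alone (adjusted p = 0.0128), in a range of 0.0122 to 0.423 over the alternatives. Abcc8 passed the threshold without the male beta library (adjusted p = 0.0175) or the female beta library (adjusted p = 0.0197), and with the 4 libraries alone (adjusted p = 0.0195), in a range of 0.0175 to 0.521 over the alternatives. In both genes the delta pools were above the double-positive pools without overlap.

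Voltage-gated calcium and sodium channel genes gave 1 higher and 9 lower of 20 tested (median -0.46), with 2 higher without the male delta library and 3 without either beta library or with the 4 libraries alone. Cacna1h, a T-type calcium channel that opens near rest, was at 8.6 and 8.48 RPKM in double-positive and 23.1 and 20.9 RPKM in delta cells (log2 difference -1.27, SE 0.12, adjusted p = 0.00135). Cacna2d2, an auxiliary subunit that brings channels to the surface, lay at 5.58 and 5.31 RPKM in double-positive and 14.6 and 17.2 RPKM in delta cells (log2 difference -1.39, SE 0.13, adjusted p = 0.00144). Its relative Cacna2d3 differed by -1.34 (SE 0.15, adjusted p = 0.00229). All 3 of these were under 0.2 RPKM in the beta pools.

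Among 12 TRP-family genes tested, 3 were higher and 2 lower, against 6.51% and 8.48% over all genes tested. Trpm5, the calcium-activated cation channel of beta cells, measured 4.51 and 4.36 RPKM in double-positive and 0.212 and 0.259 RPKM in delta cells (log2 difference 2.14, SE 0.12, adjusted p = 0.000221). Trpm2 stood at 1.96 and 1.56 RPKM in double-positive and 0.464 and 0.445 RPKM in delta cells (log2 difference 0.92, SE 0.14, adjusted p = 0.00685). Mcoln3, a lysosomal channel, was at 1.01 and 2.54 RPKM in double-positive and 0.085 and 0.202 RPKM in delta cells (log2 difference 1.22, SE 0.20, adjusted p = 0.00864). Mcoln3 missed the threshold without the pool block (adjusted p = 0.0636), and with no filter on low values (adjusted p = 0.0766), in a range of 3.72e-09 to 0.0766 over the alternatives. Trpa1, the irritant receptor, lay at 3.26 and 2.37 RPKM in double-positive and 8.64 and 8.99 RPKM in delta cells (log2 difference -1.37, SE 0.15, adjusted p = 0.00209). Trpc5 measured 0.732 and 0.732 RPKM in double-positive and 2 and 2.07 RPKM in delta cells (log2 difference -0.81, SE 0.14, adjusted p = 0.0112), which did not pass with a pseudocount of 0.1 RPKM. Trpa1 and Trpc5 were at or near 0 in beta cells.

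Receptors for hormones and nutrients split almost evenly, with 10 higher and 11 lower of 32 tested (median -0.10), against 6.51% and 8.48% over all genes. Glp1r, Gipr and Gcgr, chosen after their values were seen, encode receptors for incretins and glucagon. Glp1r, the GLP-1 receptor gene, stood at 102 and 136 RPKM in double-positive and 34.2 and 44 RPKM in delta cells (log2 difference 1.58, SE 0.17, adjusted p = 0.00218). Gipr, the receptor of the other incretin, was at 31.3 and 34.1 RPKM in double-positive and 12.4 and 7.93 RPKM in delta cells (log2 difference 1.62, SE 0.20, adjusted p = 0.00284). The glucagon receptor gene Gcgr differed by 1.38 (SE 0.16, adjusted p = 0.0027). All 3 were without overlap between the groups. Galr1, an inhibitory galanin receptor, lay at 7.17 and 8.08 RPKM in double-positive and 0.246 and 0.156 RPKM in delta cells (log2 difference 2.84, SE 0.14, adjusted p = 0.000105). Ffar3, a receptor for short-chain fatty acids, and Egfr, the epidermal growth factor receptor gene, differed by 2.17 and 1.37 (adjusted p = 0.000312 and 0.00268).

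Among the lower receptors, beside Ghsr, Oxtr, the oxytocin receptor gene, measured 7.6 and 6.59 RPKM in double-positive and 26.5 and 25.6 RPKM in delta cells (log2 difference -1.75, SE 0.14, adjusted p = 0.000657). Avpr1b, a vasopressin receptor gene, stood at 0.595 and 0.889 RPKM in double-positive and 3.41 and 4.44 RPKM in delta cells (log2 difference -1.50, SE 0.15, adjusted p = 0.00153). The fatty acid receptors Ffar1 and Ffar4 were therefore opposite, the first higher and the second lower, with 40.6 and 53.5 and 1.3 and 1.51 RPKM in beta cells.

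Of 68 neurotransmitter receptor genes, 18 were above the filter, 5 were higher and 3 lower, against 6.51% and 8.48% over all genes tested. Gabbr2, a subunit of the metabotropic GABA receptor, was at 12.8 and 12.4 RPKM in double-positive and 0.432 and 0.534 RPKM in delta cells (log2 difference 3.20, SE 0.16, adjusted p = 0.000105). Adora2b, an adenosine receptor gene, lay at 2.98 and 3.03 RPKM in double-positive and 0.415 and 0.415 RPKM in delta cells (log2 difference 1.50, SE 0.13, adjusted p = 0.000957). Chrm3, the muscarinic receptor through which acetylcholine raises insulin release, measured 7.91 and 9.12 RPKM in double-positive and 2.28 and 2.7 RPKM in delta cells (log2 difference 1.45, SE 0.14, adjusted p = 0.00145).

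Genes of cAMP and G protein signalling gave 6 higher and 12 lower of 57 tested (median -0.14), and the 12 became 5 without the female and 7 without the male double-positive library, 8 without the male delta library and 20 without either beta library. The 6 became 3 without the male double-positive library. Over all genes tested the shares were 6.51% higher and 8.48% lower. Rgs11, which speeds the turn-off of inhibitory G proteins, stood at 33.1 and 24.8 RPKM in double-positive and 5.24 and 2.23 RPKM in delta cells (log2 difference 2.72, SE 0.15, adjusted p = 0.000195), and the beta pools held less, at 10.3 and 5.99 RPKM. Pde5a, a cGMP phosphodiesterase gene, was at 10.4 and 10.1 RPKM in double-positive and 1.22 and 1.04 RPKM in delta cells (log2 difference 2.40, SE 0.14, adjusted p = 0.000259). Pde2a, another phosphodiesterase gene, was lower, at 2.7 and 3.41 RPKM in double-positive and 6.96 and 8.77 RPKM in delta cells (log2 difference -1.12, SE 0.18, adjusted p = 0.00807). Of the G protein gamma subunits, Gng12 was higher, at 136 and 139.9 RPKM in double-positive and 52.9 and 56.2 RPKM in delta cells (log2 difference 1.32, SE 0.14, adjusted p = 0.00204). Gng2 was lower, at 10.4 and 6.52 RPKM in double-positive and 22.2 and 20.6 RPKM in delta cells (log2 difference -1.27, SE 0.15, adjusted p = 0.00255).

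Groups of genes with neuronal roles had more decreases than increases, which also held over all genes tested (8.48% lower and 6.51% higher). In each group below, the share of lower genes was above that of all genes. Axon guidance genes gave 2 higher and 16 lower of 35 tested (median -0.47), cell and synaptic adhesion genes 3 higher and 14 lower of 36 (median -0.32), and genes of the neuronal cytoskeleton 2 higher and 12 lower of 29 (median -0.34). Without the female double-positive library the lower counts were 9, 8 and 7 in that order, and without the male one 11, 13 and 8.

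Among guidance genes, Efnb3, a ligand of Eph receptors, lay at 13.3 and 17.1 RPKM in double-positive and 39.4 and 51.1 RPKM in delta cells (log2 difference -1.51, SE 0.13, adjusted p = 0.00109). A further ligand, Efna5, measured 11.5 and 10.3 RPKM in double-positive and 27.3 and 28.2 RPKM in delta cells (log2 difference -1.27, SE 0.13, adjusted p = 0.00151). Sema3e, a secreted semaphorin gene, stood at 5.89 and 4.89 RPKM in double-positive and 14.3 and 13 RPKM in delta cells (log2 difference -1.20, SE 0.13, adjusted p = 0.00226). Robo1, a Slit receptor gene, went the other way, at 4.26 and 5.59 RPKM in double-positive and 0.257 and 0.186 RPKM in delta cells (log2 difference 2.27, SE 0.20, adjusted p = 0.00105), near the beta level of 4.94 and 8.91 RPKM. Plxnb2, a semaphorin receptor gene, was high in every pool and did not pass (log2 difference -0.22, SE 0.11, adjusted p = 0.237).

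Among adhesion genes, Cadm1 was at 10.5 and 8.58 RPKM in double-positive and 24.8 and 27.3 RPKM in delta cells (log2 difference -1.36, SE 0.14, adjusted p = 0.00161). Ncam2 lay at 17.1 and 13 RPKM in double-positive and 42.1 and 36.5 RPKM in delta cells (log2 difference -1.34, SE 0.14, adjusted p = 0.00161) and Dscam differed by -1.32 (SE 0.14, adjusted p = 0.00178). These 3 encode immunoglobulin-type adhesion proteins of neurons. Nrcam, Igsf11 and Cdh7 were the 3 higher ones, with differences of 1.33 (SE 0.14, adjusted p = 0.00179), 1.25 (SE 0.13, adjusted p = 0.00194) and 1.13 (SE 0.15, adjusted p = 0.00421), all from under 0.5 RPKM in the delta pools. Cdh1, E-cadherin, did not pass, at 132 and 125 RPKM in double-positive and 146 and 151 RPKM in delta cells (log2 difference -0.21, SE 0.12, adjusted p = 0.327).

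Of the cytoskeletal genes, Basp1, a membrane-bound growth cone protein, measured 6.65 and 5.31 RPKM in double-positive and 23.6 and 23.1 RPKM in delta cells (log2 difference -1.81, SE 0.16, adjusted p = 0.000979). Nefm, the medium neurofilament, stood at 13.6 and 9.63 RPKM in double-positive and 32.4 and 26.8 RPKM in delta cells (log2 difference -1.29, SE 0.13, adjusted p = 0.00158). Tubb3, the tubulin used as a neuronal marker, was at 13.2 and 15.7 RPKM in double-positive and 2.74 and 3.21 RPKM in delta cells (log2 difference 1.95, SE 0.11, adjusted p = 0.000196), and the beta pools were higher still at 31.6 and 37.4 RPKM.

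Imprinted genes, which are expressed from a single parental copy, gave 1 higher and 12 lower of 27 tested (median -0.41). Peg10 lay at 14.9 and 18.4 RPKM in double-positive and 56.8 and 88.2 RPKM in delta cells (log2 difference -2.03, SE 0.16, adjusted p = 0.000657). Sgce, its neighbour on the chromosome, measured 2.92 and 2.63 RPKM in double-positive and 8.11 and 10.3 RPKM in delta cells (log2 difference -1.43, SE 0.15, adjusted p = 0.00189). Mest stood at 25.1 and 25.1 RPKM in double-positive and 62.5 and 69.8 RPKM in delta cells (log2 difference -1.36, SE 0.11, adjusted p = 0.000818). All 3 were under 0.5 RPKM in both beta pools. Without the female double-positive library, 7 of the list were lower. The 1 higher gene became 0 without either double-positive library or the female delta library, and 2 without the male delta library.

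Of the 12 largest decreases, 4 genes stand in no list. Eef1a2, a translation elongation factor of neurons and muscle, was at 9.53 and 8.36 RPKM in double-positive and 41.4 and 42.9 RPKM in delta cells (log2 difference -2.12, SE 0.15, adjusted p = 0.000494). Ly6h, a neuronal surface protein gene, lay at 3.64 and 5.1 RPKM in double-positive and 15.7 and 24.6 RPKM in delta cells (log2 difference -1.96, SE 0.17, adjusted p = 0.000979). Mfge8, a secreted bridge for the uptake of dying cells, measured 6.92 and 5.28 RPKM in double-positive and 24.3 and 25.7 RPKM in delta cells (log2 difference -1.88, SE 0.14, adjusted p = 0.000603). Sftpd, a collectin first known from lung surfactant, stood at 9.87 and 4.43 RPKM in double-positive and 28.2 and 23.3 RPKM in delta cells (log2 difference -1.79, SE 0.23, adjusted p = 0.00377). The rule for these genes asked for groups without overlap.

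**Figure D4:**
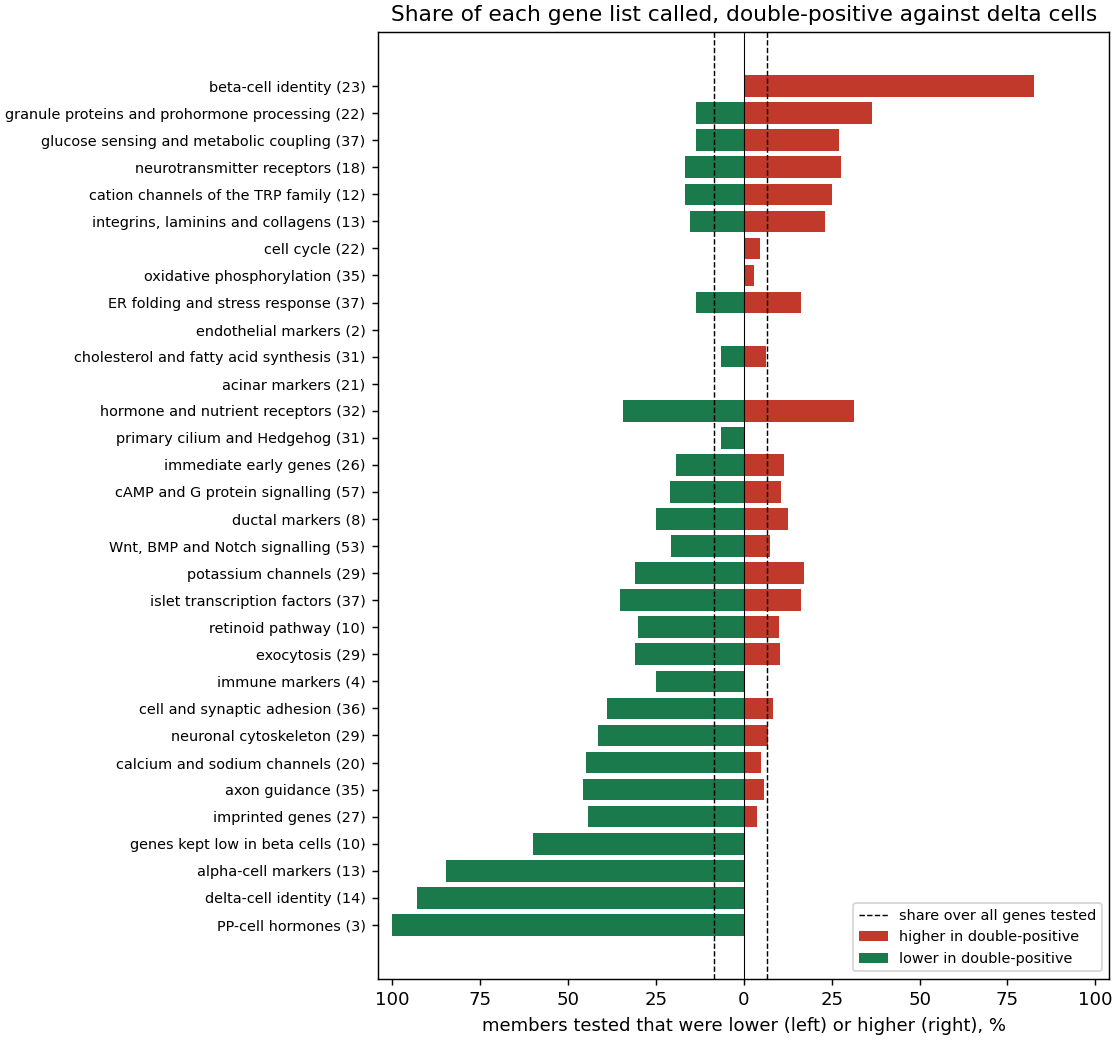
Share of the tested members of 32 gene lists called lower (left, green) or higher (right, red) in double-positive cells, with the number tested in brackets and dashed lines at the shares over all genes, 8.48% and 6.51%. Beta-cell identity genes reach 19 of 23 on the right, and PP, delta and alpha genes reach 3 of 3, 13 of 14 and 11 of 13 on the left.

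With no filter on low values, many list counts fell by more than 1.5 times, and the cause was not tested. The lower counts became 7 for alpha-cell markers, 1 for PP-cell genes, 8 for islet transcription factors, 1 for exocytosis, 6 for axon guidance, 6 for the neuronal cytoskeleton, 5 for imprinted genes and 3 for cAMP and G protein signalling. The higher counts became 4 for granule proteins and 3 for glucose sensing. Of the lists further below, 4 genes of Wnt, BMP and Notch signalling were lower. So were 7 hormone and nutrient receptors and 0 genes of endoplasmic reticulum folding and stress, with 1 of the last list higher. No immediate early gene was called. Some smaller lists that also fell are not named here. Beta-cell and delta-cell identity genes moved by less than 1.5 times. With a pseudocount of 0.1 RPKM, 5 exocytosis genes, 10 axon guidance genes and 3 of the genes kept low in beta cells were lower.

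Genes of Wnt, BMP and Notch signalling gave 4 higher and 11 lower of 53 tested (median -0.30), with 6 lower without the male and 7 without the female double-positive library and 19 without either beta library or with the 4 libraries alone. Over all genes tested the shares were 6.51% higher and 8.48% lower, and the higher share of this list was near that. Wnt4, a Wnt ligand of mature beta cells, was at 58.7 and 62 RPKM in double-positive and 15.6 and 22.9 RPKM in delta cells (log2 difference 1.62, SE 0.16, adjusted p = 0.0016). Jag2, a Notch ligand gene, lay at 5.39 and 5.66 RPKM in double-positive and 1.35 and 1.43 RPKM in delta cells (log2 difference 1.45, SE 0.12, adjusted p = 0.000818). Dkk3, a secreted protein of the Dickkopf family, measured 1.81 and 2.19 RPKM in double-positive and 0.0702 and 0.038 RPKM in delta cells (log2 difference 1.50, SE 0.15, adjusted p = 0.00158), and both beta pools were at or under 0.2 RPKM. Sfrp5, a secreted Wnt antagonist, stood at 7.6 and 12.4 RPKM in double-positive and 30.5 and 34.7 RPKM in delta cells (log2 difference -1.65, SE 0.20, adjusted p = 0.00299). Bmp6, a bone morphogenetic protein gene, was at 1.99 and 1.45 RPKM in double-positive and 6.9 and 5.35 RPKM in delta cells (log2 difference -1.39, SE 0.15, adjusted p = 0.00181). Gdf15, a stress hormone, lay at 9.95 and 13.5 RPKM in double-positive and 23.7 and 34.1 RPKM in delta cells (log2 difference -1.22, SE 0.23, adjusted p = 0.0147). The beta pools were close to the double-positive ones for Sfrp5, at 7.74 and 6.36 RPKM, and near 0 for Bmp6.

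Retinoid genes gave 1 higher and 3 lower of 10 tested (median -0.29), against 6.51% and 8.48% over all genes tested. None was higher without the male or the female double-positive library or without the male delta library, and 2 were without either beta library. Beside Rbp4, Bco1, which splits beta-carotene, measured 7.5 and 6.75 RPKM in double-positive and 12.9 and 14.7 RPKM in delta cells (log2 difference -0.86, SE 0.13, adjusted p = 0.00721). Integrins, laminins and collagens gave 3 higher and 2 lower of 13, to be set against the same shares. Without the female double-positive library 2 were higher and none lower, without either beta library 4 and 4, and 1 was lower without the male double-positive or the female delta library. Itgav stood at 16.3 and 14.6 RPKM in double-positive and 4.83 and 4.18 RPKM in delta cells (log2 difference 1.58, SE 0.18, adjusted p = 0.00249). Itga2 was at 1.4 and 1.61 RPKM in double-positive and 0.0699 and 0.0757 RPKM in delta cells (log2 difference 1.22, SE 0.18, adjusted p = 0.00555). Both are integrin alpha subunits. Primary cilium and Hedgehog genes gave 0 higher and 2 lower of 31, near the background of 8.48% lower. None was lower without the male or the female double-positive library or the male delta library, and 2 were higher without either beta library. The 2 were Ptch1 and Smo, receptor and transducer of Hedgehog, with differences of -0.61 (SE 0.15, adjusted p = 0.0384) and -0.56 (SE 0.14, adjusted p = 0.0453). Ptch1 missed the threshold without the pool block (adjusted p = 0.068), the male double-positive library (adjusted p = 0.0686), the female double-positive library (adjusted p = 0.275) or the male delta library (adjusted p = 0.178), and with a pseudocount of 0.1 RPKM (adjusted p = 0.0651) and with no filter on low values (adjusted p = 0.133), in a range of 0.00546 to 0.275 over the alternatives. Smo missed the threshold without the male double-positive library (adjusted p = 0.22), the female double-positive library (adjusted p = 0.163), the male beta library (adjusted p = 0.0537), the female beta library (adjusted p = 0.0535) or the male delta library (adjusted p = 0.18), and with a pseudocount of 0.1 RPKM (adjusted p = 0.128) and with no filter on low values (adjusted p = 0.104), in a range of 0.0374 to 0.22 over the alternatives.

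Immediate early genes, which respond within minutes to activity or to cell handling, gave 3 higher and 5 lower of 26 (median -0.56), with 17 lower without the female delta library and 14 without either beta library. One was higher without the female double-positive library. With no filter on low values, 0 of the 28 genes were higher and 0 lower. Over all genes tested in the main fit the shares were 6.51% higher and 8.48% lower. Ier2 lay at 61 and 70.7 RPKM in double-positive and 159 and 129 RPKM in delta cells (log2 difference -1.11, SE 0.15, adjusted p = 0.00483). Junb, a partner of Fos in the AP-1 factor, measured 58.1 and 95.4 RPKM in double-positive and 155 and 149 RPKM in delta cells (log2 difference -1.02, SE 0.18, adjusted p = 0.011). Cyr61, a matricellular protein gene, stood at 5.77 and 3.23 RPKM in double-positive and 11.9 and 9.26 RPKM in delta cells (log2 difference -1.11, SE 0.15, adjusted p = 0.00436). Cyr61 missed the threshold without the pool block (adjusted p = 0.0701), and with no filter on low values (adjusted p = 0.0525), in a range of 2.05e-06 to 0.0701 over the alternatives. Nr4a2, an orphan nuclear receptor gene, was at 4.27 and 4.57 RPKM in double-positive and 2.06 and 1.74 RPKM in delta cells (log2 difference 0.90, SE 0.17, adjusted p = 0.0137). The summed level of the 28 genes was 978.9 and 968.7 RPKM in double-positive and 1844 and 1322 RPKM in delta cells.

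Genes of folding and stress in the endoplasmic reticulum gave 6 higher and 5 lower of 37 (median -0.02), against 6.51% and 8.48% over all genes tested. None was lower without the male or the female double-positive library or without the male delta library, and 2 were higher without the male double-positive library. Without either beta library 8 were higher and 12 lower. Trib3, a target of the stress factor Chop, lay at 48.8 and 32.9 RPKM in double-positive and 20.7 and 20.3 RPKM in delta cells (log2 difference 0.94, SE 0.16, adjusted p = 0.0114). Trib3 missed the threshold without the pool block (adjusted p = 0.0576), and with no filter on low values (adjusted p = 0.0806), in a range of 8.4e-07 to 0.0806 over the alternatives. The lectin chaperone Calr measured 233 and 279 RPKM in double-positive and 375 and 399 RPKM in delta cells (log2 difference -0.60, SE 0.13, adjusted p = 0.0274). Its partner Pdia3 stood at 464 and 442 RPKM in double-positive and 673 and 683 RPKM in delta cells (log2 difference -0.58, SE 0.12, adjusted p = 0.0216). Calr missed the threshold without the pool block (adjusted p = 0.096), the male double-positive library (adjusted p = 0.114), the female double-positive library (adjusted p = 0.188) or the male delta library (adjusted p = 0.161), and with no filter on low values (adjusted p = 0.134), in a range of 0.00536 to 0.188 over the alternatives. Pdia3 missed the threshold without the male double-positive library (adjusted p = 0.0748), the female double-positive library (adjusted p = 0.307) or the male delta library (adjusted p = 0.0587), and with no filter on low values (adjusted p = 0.133), in a range of 0.00594 to 0.307 over the alternatives.

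Of 35 respiratory chain genes, 1 was higher (Cox6a2) and none lower (median -0.04), with 1 lower without the male double-positive or the male delta library. Of 22 cell cycle genes, 1 was higher (median 0.09): E2f1, a transcription factor of S-phase entry, at 1.97 and 2.65 RPKM in double-positive and 0.411 and 0.445 RPKM in delta cells (log2 difference 1.21, SE 0.14, adjusted p = 0.00238). Without either beta library 2 of the list were higher and 1 lower. Ccnd2, the main D cyclin of beta cells, did not pass, at 85.1 and 81.3 RPKM in double-positive and 94.8 and 97.2 RPKM in delta cells (log2 difference -0.20, SE 0.13, adjusted p = 0.348). Of 31 genes of cholesterol and fatty acid synthesis, 2 were higher and 2 lower (median 0.04). Without either beta library these counts were 5 and 6, without the female double-positive library 1 and 0, without the male one 1 and 2, and without the male delta library 2 and 0. Sqle, squalene epoxidase, was at 38.9 and 41.7 RPKM in double-positive and 20.2 and 23.5 RPKM in delta cells (log2 difference 0.86, SE 0.11, adjusted p = 0.00396). Fads2, a fatty acid desaturase gene, differed by -0.71 (SE 0.14, adjusted p = 0.0174). Fads2 missed the threshold without the pool block (adjusted p = 0.415), the female double-positive library (adjusted p = 0.116) or the male delta library (adjusted p = 0.0853), and with no filter on low values (adjusted p = 0.0832), in a range of 0.00457 to 0.415 over the alternatives. With all 6 libraries, the shares of these 3 lists were below the background of 6.51% higher and 8.48% lower.

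Markers of cells outside the endocrine islet ranged widely in level. Summed over each list, the mesenchymal markers reached 0.2545 to 0.917 RPKM across the 4 libraries, the endothelial ones 5.312 to 8.536 RPKM and the immune ones 50.11 to 93.79 RPKM. The 10 ductal markers summed to 507.9 and 390.9 RPKM in double-positive and 530.2 and 443.5 RPKM in delta cells, most of it from keratins and Spp1. None of the 10 mesenchymal markers passed the filter, 2 of 9 endothelial ones did and neither was called, Esam standing at 4.26 and 4.35 RPKM in double-positive and 4.83 and 5.49 RPKM in delta cells. Of 16 immune markers 4 were tested, and C1qa was lower, at 29.4 and 32.6 RPKM in double-positive and 59.3 and 76.9 RPKM in delta cells (log2 difference -1.10, SE 0.11, adjusted p = 0.00161). Cd74 did not pass, at 2.38 and 6.83 RPKM in double-positive and 2.88 and 2.76 RPKM in delta cells (log2 difference 0.43, SE 0.29, adjusted p = 0.393), and its pools moved apart. Cd74 passed the threshold without the male double-positive library (adjusted p = 0.00432) or the male delta library (adjusted p = 0.0092), in a range of 0.00432 to 0.922 over the alternatives. Of 8 ductal markers tested, 1 was higher and 2 lower: Krt7 by 0.46 (SE 0.11, adjusted p = 0.0342), Sox9 as given above and Muc1 by -0.70 (SE 0.16, adjusted p = 0.0293). Krt7 missed the threshold without the pool block (adjusted p = 0.0564), the male double-positive library (adjusted p = 0.177), the female double-positive library (adjusted p = 0.325), the male delta library (adjusted p = 0.232) or the female delta library (adjusted p = 0.133), and with no filter on low values (adjusted p = 0.0806) and after median-of-ratios scaling (adjusted p = 0.0673), in a range of 0.00767 to 0.325 over the alternatives. Muc1 missed the threshold without the pool block (adjusted p = 0.0579), the female double-positive library (adjusted p = 0.254) or the female delta library (adjusted p = 0.237), and with a pseudocount of 0.1 RPKM (adjusted p = 0.0511) and with no filter on low values (adjusted p = 0.131), in a range of 0.00186 to 0.254 over the alternatives.

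Acinar genes, which encode digestive enzymes, differed between pools mainly in the double-positive and beta libraries, and less in the delta libraries. None of the 21 tested was called. Their summed level over 26 markers was 3047 and 211.7 RPKM in the double-positive libraries, 1015 and 730.4 RPKM in the delta libraries, and 11620 and 474.6 RPKM in the beta libraries. Ctrb1, a chymotrypsinogen gene, lay at 915 and 34.2 RPKM in double-positive and 271 and 157 RPKM in delta cells (log2 difference -0.21, SE 0.87, adjusted p = 0.908), and Cela1, an elastase gene, at 441 and 82.2 RPKM in double-positive and 234 and 260.0 RPKM in delta cells (log2 difference -0.37, SE 0.95, adjusted p = 0.846). In the male pools double-positive cells were above delta cells and in the female pools below them. Without the female delta library 19 of the list were called higher, and without the male delta library 19 were called lower. Cela3a and Amy2a5 were at 0 in all 4 libraries. The part of this acinar RNA in other results was not tested.

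**Figure D5:**
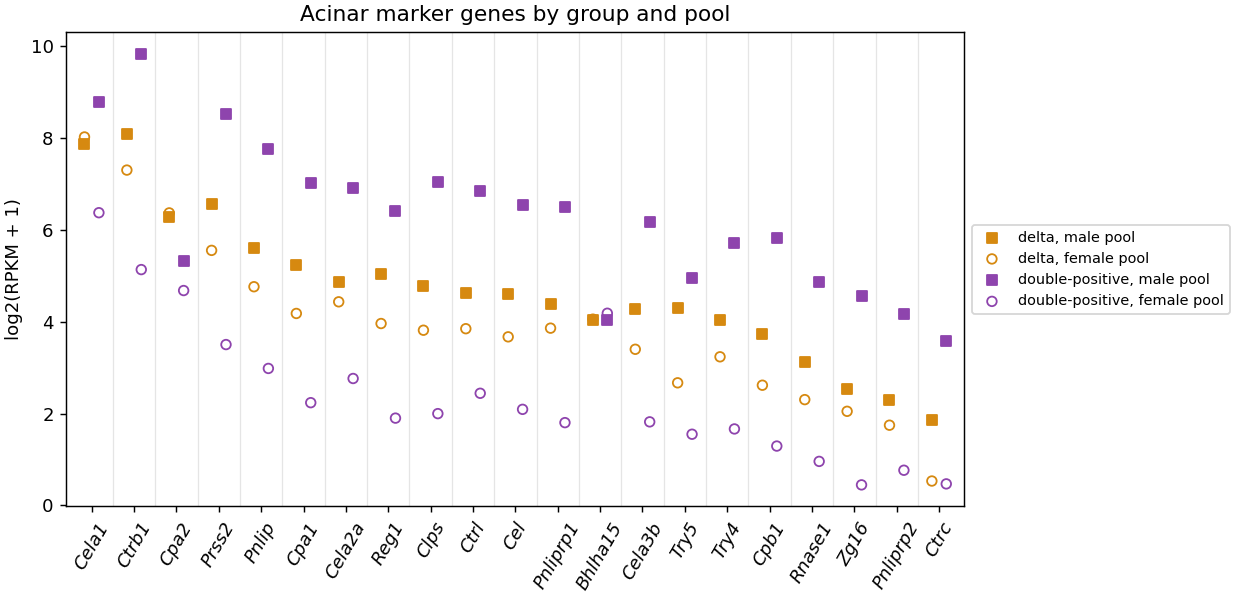
Levels of 21 acinar marker genes as log2(RPKM + 1) in the delta and double-positive libraries, with filled squares for male and open circles for female pools. For most genes the male double-positive library is highest and the female double-positive library lowest, with both delta libraries between them.

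Classes of gene differed in their counts. Of 328 small RNA loci tested, 68 were higher (20.7%) and 11 lower (3.35%), against 625 higher (5.68%) and 1013 lower (9.2%) of 11005 protein-coding genes. Long non-coding and other loci gave 105 higher (10.4%) and 33 lower (3.27%) of 1008. The small RNA loci had a median exon length of 95 bases, at which 1 read is worth 0.84 and 0.965 RPKM in the double-positive and 0.62 and 0.672 RPKM in the delta libraries. At a locus of that length, 2 reads in a library therefore reach 1 RPKM, and 1 read does not. Reads on such a locus cannot be told from those of a host transcript. The part of depth in this difference was not tested.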

How the data were processed

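Per the labels' protocols, RNA of sorted islet cells was made into TruSeq version 2 libraries. The authors deposited 1 RPKM value per gene symbol and library. The submitters' processing notes list STAR 2.5, featureCounts, edgeR 3.14.0 and GRCm38.p4, without order or settings, and are silent on strand. Reads shared by close copies such as Ins1 and Ins2 may have been split between them.

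A further 27 rows whose symbols had become calendar dates were dropped. Read denominators were recovered from low RPKM values with GENCODE M21 exon lengths, matched for 44027 symbols. Below 50 reads, 83.3% to 86.4% of values were whole to within 0.01 read. Promoter windows on chromosome 18 were not used.

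Values were transformed to log2(RPKM + 1), which understates the change of low genes, and fitted with limma 3.58.1 (limma-trend, R 4.3.3, two-sided) over all 6 libraries, so that beta cells add to the estimate of spread (2 residual and 4.8 prior degrees of freedom). The pool was a block, since the series text ties the sorted populations to shared islets, pooled by sex. Across genes, the male minus female differences of 2 groups correlated at 0.37 (double-positive with delta), 0.47 (double-positive with beta) and 0.24 (delta with beta). Alternatives were the fit without the block, a pseudocount of 0.1, other filters, median-of-ratios scaling, the 4 libraries alone and each library left out. A beta library left alone in its group is fitted exactly and adds nothing to the spread. Leaving out either beta library is therefore nearly the same fit as the 4 libraries alone, and no separate check.

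Genes and gene lists were chosen with earlier results of these data known. The genes named are a panel of 20 hormone, regulator and marker genes, the 12 largest increases and 12 largest decreases that were called without overlap and at 5 RPKM or more in the higher group (predicted genes left out), and up to 3 called members per list and direction with up to 2 abundant ones that did not pass. Not all genes that met this rule are printed: those whose call rested on 1 library are mostly covered by counts, and some are not reported here. Slc30a8, Glp1r, Papss2, Npy, Ptprz1, Ffar4, Arg1, Cd24a, Irx2, Etv1, Fev, Mlxipl, Gipr, Gcgr, Ffar3, Egfr, Mir344-2 and the genes of the closing observations fall outside it and were chosen after their values were seen. RefSeq holds the promoter sequences printed here, and Ins2 had no entry.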

Additional observations from a re-analysis of the deposited data

Results flagged for a closer look

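In 4 genes that did not pass the test, the 2 pools moved in opposite directions between delta and double-positive cells, and the difference between pools was not tested. Ctrb1 was higher by 1.75 on the log2 scale in the male pool and changed by -2.17 in the female pool. Cela1 gave 0.91 and -1.65 in the same order. Both are acinar genes, and the summed acinar level in double-positive cells was 3047 RPKM for the male pool and 211.7 RPKM for the female pool. Cd74, an immune gene, gave -0.2 in the male and 1.06 in the female pool. Npy, a neuropeptide gene, gave -0.49 in the male and 0.48 in the female pool.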

How the results depend on the processing

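No gene called in double-positive against delta cells was called in the opposite direction under any of the 13 alternatives. The direction of the 148 called genes named in the text was thus unchanged. How many of the 148 passed whichever library was left out is no measure for all called genes. Genes whose call rested on 1 library were mostly not printed, and the closing genes were picked for passing every such fit. Without the replicate block for the pools, 710 genes were higher and 946 lower, of which 700 and 928 were shared with the blocked fit, and 11 of the named calls were lost. The counts moved by more than 1.5 times with no filter on low values (363 higher, 379 lower), with a mean of 5 RPKM or more (444 higher, 660 lower of 8267 tested) and with the 4 libraries alone (1398 higher, 1971 lower). Leaving out 1 library gave 553 to 1403 higher and 545 to 1974 lower genes. When 1 library was left out, Ctrb1 ran from -2.16 to 1.74 (0.78 without the female double-positive library), Cela1 from -2.24 to 1.5, Cd74 from -0.18 to 1.04 and Npy from -0.5 to 0.49 (0.22 without the male double-positive library, and 0 after scaling). With no filter 33 of the named genes lost their call, with a pseudocount of 0.1 RPKM 7 did. The cause of these shifts was not tested. Leaving out a library leaves 1 residual degree of freedom, and the shallowest library has 10.9 M reads, so low genes carry large counting error.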

Other observations

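Beyond the lists, further genes differed between double-positive and delta cells in every leave-one-out fit. They were chosen after their values were seen and are given as values. Among those higher, Bace2, a protease that trims membrane proteins of beta cells, was at 131 and 136 RPKM in double-positive and 12.1 and 11.9 RPKM in delta cells (log2 difference 3.37, SE 0.10, adjusted p = 1.98e-05). Adh1, an alcohol dehydrogenase gene, was at 42 and 43.2 RPKM in double-positive and 3.01 and 2.63 RPKM in delta cells (log2 difference 3.51, SE 0.11, adjusted p = 1.98e-05). Ddc, which makes serotonin and dopamine from their precursors, was at 55.1 and 67.6 RPKM in double-positive and 7.13 and 8.65 RPKM in delta cells (log2 difference 2.81, SE 0.10, adjusted p = 3.03e-05). The metal-binding protein gene Mt2 was at 830.5 and 751 RPKM in double-positive and 182 and 172 RPKM in delta cells (log2 difference 2.15, SE 0.13, adjusted p = 0.000261). Gad1, which makes GABA, was at 5.41 and 6.64 RPKM in double-positive and 0.108 and 0.142 RPKM in delta cells (log2 difference 2.64, SE 0.13, adjusted p = 0.000105), and Ntrk2, a neurotrophin receptor gene, differed by 2.58 (SE 0.16, adjusted p = 0.000287). Fam151a, Msln and Olfm4 differed by 3.53 (SE 0.11, adjusted p = 1.98e-05), 3.50 (SE 0.20, adjusted p = 0.000221) and 3.45 (SE 0.21, adjusted p = 0.000283). Nupr1, a stress-induced nuclear protein gene, was higher by 1.92 (SE 0.28, adjusted p = 0.00572), and both its groups had more in the male than in the female pool (91.4 and 28.8 RPKM in double-positive cells). Nupr1 did not pass without the pool block (adjusted p = 0.162, in a range of 2.11e-27 to 0.162 over the alternatives).

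Among those lower, Gpx3, a secreted glutathione peroxidase gene, was at 305 and 268 RPKM in double-positive and 991 and 978 RPKM in delta cells (log2 difference -1.78, SE 0.19, adjusted p = 0.00184). Ache, acetylcholinesterase, was at 9.48 and 9.9 RPKM in double-positive and 28.9 and 35.9 RPKM in delta cells (log2 difference -1.64, SE 0.19, adjusted p = 0.00246). Gfra1, a receptor of the GDNF family, was at 4.49 and 5.41 RPKM in double-positive and 15.1 and 19.3 RPKM in delta cells (log2 difference -1.61, SE 0.14, adjusted p = 0.000979). Calb1, a calcium buffer, was at 6.26 and 6.57 RPKM in double-positive and 16.2 and 20.7 RPKM in delta cells (log2 difference -1.38, SE 0.13, adjusted p = 0.00132). Gpm6a, a neuronal membrane glycoprotein gene, and Bmp3, a bone morphogenetic protein gene, differed by -1.49 (SE 0.17, adjusted p = 0.00226) and -1.52 (SE 0.14, adjusted p = 0.0013). Of these, Gpx3 held 21.1 and 32.6 RPKM in the beta pools and Bmp3 held 0.0815 and 0.0595 RPKM.

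Some genes lay above both delta and beta pools in the 2 double-positive libraries. Akr1c14, a steroid-reducing enzyme gene, was at 29.1 and 28.8 RPKM in double-positive and 5.71 and 5.36 RPKM in delta cells (log2 difference 2.20, SE 0.11, adjusted p = 0.000138), with 14.1 and 12.2 RPKM in beta cells. Pigr, the polymeric immunoglobulin receptor of epithelia, was at 34.9 and 17.3 RPKM in double-positive and 7.59 and 5.61 RPKM in delta cells (log2 difference 1.77, SE 0.16, adjusted p = 0.00111), with 14.8 and 8.2 RPKM in beta cells. Aqp4, a water channel gene, was at 7.19 and 6.48 RPKM in double-positive and 1.16 and 0.577 RPKM in delta cells (log2 difference 2.08, SE 0.24, adjusted p = 0.00242), with 1.27 and 2.4 RPKM in beta cells. Neat1, a nuclear long non-coding RNA, was at 62.2 and 56.1 RPKM in double-positive and 25.3 and 16.1 RPKM in delta cells (log2 difference 1.50, SE 0.18, adjusted p = 0.00263), with 14.7 and 16 RPKM in beta cells.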
